A study of Mus musculus with 8 samples.

Results

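The genes described here are the 3 FOXO transcription factor genes Foxo1, Foxo3 and Foxo4 together with Akt1 and Sgk1, which encode kinases that phosphorylate FOXO proteins. They were chosen by name, as 5 genes of the 30387 in the table, and all 5 were among the 18800 genes with enough signal to be tested. Bim, the pro-apoptotic gene listed as Bcl2l11, is given beside them because it is the cell-death target that links FOXO factors to AKT. RNA was sequenced from white adipocytes isolated from epididymal fat of WT mice and of Ad-Yap/Taz-KO mice after 4 weeks on standard diet (SD, given as normal chow in the sample labels) or high-fat diet (HFD). In Ad-Yap/Taz-KO mice, Cre recombinase under the adiponectin promoter deletes floxed Yap and Taz (Wwtr1) from adipocytes, so other cell types that remain in the preparation keep both genes. WT denotes littermate controls of that cross. Diet feeding began at 6 weeks of age according to the methods and in week 5 according to the data set's own description. Each of the 4 groups held 2 libraries. The figure legends count them as separate mice.

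FOXO proteins are forkhead transcription factors that act in the nucleus when growth factor signalling is low. Insulin and related signals activate phosphoinositide 3-kinase (PI3K), which recruits PDK1 and mTORC2 to switch on AKT and SGK kinases. These kinases phosphorylate FOXO proteins, which then bind 14-3-3 proteins and leave the nucleus. Nuclear FOXO factors are known to induce cell-death genes such as Bim, cell cycle inhibitors, stress defence genes and metabolic genes, and Foxo1 also takes part in adipocyte differentiation and in the insulin response of fat. This control acts on the proteins and is not measured by RNA-seq, so every value below is an RNA level.

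The values are normalized counts, which are gene counts divided by 1 factor per library. They summed to between 14.89 and 20.99 M per library, and the spacing of low values placed the reads on genes between 14.0 and 22.3 M. The deleted genes were lower but not absent. Wwtr1 stood at 5594 and 4743 in WT on SD, 2441 and 1957 in Ad-Yap/Taz-KO on SD, 7121 and 6807 in WT on HFD and 2060 and 2707 in Ad-Yap/Taz-KO on HFD. For Yap1 the libraries in the same order gave 2776 and 2717, 1669 and 1699, 2468 and 2333, and 1549 and 2068. In limma, Yap1 differed on SD (log2 fold change -0.70, adjusted p = 0.024) and missed the adjusted p limit on HFD (-0.42, adjusted p = 0.059). The 2 WT libraries on HFD were closer to each other than any other pair, and tests were repeated with their mean as 1 sample.

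Markers of adipocytes and of other cell types moved with genotype and diet. The summed level of 12 adipocyte markers was 310349 and 318100 in WT on SD, 264905 and 370795 in Ad-Yap/Taz-KO on SD, 552442 and 543713 in WT on HFD, and 293400 and 153609 in Ad-Yap/Taz-KO on HFD. The summed level of 18 macrophage markers ran from 6583 to 7205, from 30227 to 48597, from 3170 to 3261 and from 54332 to 68695 in those 4 groups. Of the 18, 17 were called higher in Ad-Yap/Taz-KO on HFD, beside 17.1% of all genes tested. No marker of either list was at 0 in all libraries. Fibroblast and progenitor markers (9 genes) had sums of 25101 and 25713 (WT) and of 86066 and 96423 (Ad-Yap/Taz-KO) on HFD, and endothelial markers (8 genes) of 14948 and 15376 and of 19718 and 30167. In such bulk RNA, fewer cells of a type and less RNA per cell cannot be told apart, and the part of these markers in the results on HFD was not tested.

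Stretches upstream of the annotated starts are shown for 3 genes because they hold a short motif of a factor discussed here and overlap no annotated UTR. Sequences were taken from RefSeq (GRCm38.p6), as the 250 bases before each start, written 5′ to 3′ on the strand of the gene. The Akt1 stretch lies on chr12:112674885-112675134 (minus strand) and that of Bim on chr2:128125788-128126037 (plus strand). Each is the stretch before 1 of 2 starts listed for its gene, the other holding no forkhead match, and is shown with the forkhead motif GTAAACA or its reverse complement TGTTTAC in capitals. The Sgk1 stretch on chr10:21993640-21993889 (plus strand), before one of 6 starts listed for that gene, has the TEAD motif GGAATG in its reverse complement CATTCC in capitals, TEAD proteins being the DNA-binding partners of YAP and TAZ.
Akt1: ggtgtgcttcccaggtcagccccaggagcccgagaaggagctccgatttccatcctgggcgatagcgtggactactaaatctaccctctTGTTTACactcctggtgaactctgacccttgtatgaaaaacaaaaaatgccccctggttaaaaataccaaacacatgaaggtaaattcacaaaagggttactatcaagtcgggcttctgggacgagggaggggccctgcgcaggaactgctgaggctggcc
Bim: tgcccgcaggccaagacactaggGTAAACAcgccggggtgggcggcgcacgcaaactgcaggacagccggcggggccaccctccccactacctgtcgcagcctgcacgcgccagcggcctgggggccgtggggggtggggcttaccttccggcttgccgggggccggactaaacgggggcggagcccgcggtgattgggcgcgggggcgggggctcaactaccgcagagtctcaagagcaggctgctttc
Sgk1: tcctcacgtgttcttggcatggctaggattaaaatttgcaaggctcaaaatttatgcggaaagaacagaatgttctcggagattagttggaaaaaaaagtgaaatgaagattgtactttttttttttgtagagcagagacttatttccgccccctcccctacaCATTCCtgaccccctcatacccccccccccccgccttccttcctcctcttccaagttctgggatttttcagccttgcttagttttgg
Counting the last base before the start as -1, the forkhead match began at -161 for Akt1 and -227 for Bim, and the TEAD match at -87 for Sgk1. The stretches before the other 5 Sgk1 starts and both Bim starts held no TEAD match. The paper reports, by chromatin immunoprecipitation, more YAP on HFD than on SD at a TEAD-binding site of the Bim promoter. Whether that site lies within these 250 bases or differs from the letters searched was not examined. On both strands, the forkhead letters occurred in 3.17% of 32851 stretches of the same length and the TEAD letters in 12.6%. The stretch before the Foxo1 start held none of these motifs, that before the Foxo3 start held CATTCC once but overlaps annotated UTRs and is not shown, and Foxo4 has no entry. The AP-1 motif TGACTCA, which overlaps neither of the others and occurred in 4.46% of stretches, was in none of the stretches of these genes. A match is a description of letters and not a binding site.

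Foxo1 encodes the FOXO factor best known for insulin-regulated transcription in fat and liver (ENSMUSG00000044167, chr3:52268336-52353221). Its level was 1831 and 1818 in WT on SD, 1390 and 1658 in Ad-Yap/Taz-KO on SD, 2798 and 2626 in WT on HFD, and 1431 and 1547 in Ad-Yap/Taz-KO on HFD. The WT libraries on HFD stood highest and overlapped no other group, whereas the Ad-Yap/Taz-KO groups overlapped each other across diets. A gene was called changed when its adjusted p did not exceed 0.05 and its log2 fold change, up or down, reached 0.59. On HFD, Foxo1 was 1.82-fold lower in Ad-Yap/Taz-KO adipocytes (log2 fold change -0.86, SE 0.15, adjusted p = 0.00087). On SD the difference was -0.27 (95% interval -0.59 to 0.06, adjusted p = 0.41). In WT mice the level on HFD was higher by 0.57 on the log2 scale (SE 0.15, adjusted p = 0.021), which falls short of the fold limit. With libraries scaled to the same total this difference was 0.157 (adjusted p = 0.49), with quantile normalization 0.29 (adjusted p = 0.24) and with the correction for GC content and length 0.38 (adjusted p = 0.093). In Ad-Yap/Taz-KO mice the diet difference was -0.03 (95% interval -0.36 to 0.30). An annotated gene on the opposite strand, Gm20402, covers 7.8% of the exon bases of Foxo1, and whether counting used the strand is not stated.

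Foxo3, a FOXO factor known for stress resistance and for the induction of Bim (ENSMUSG00000048756, chr10:42181841-42276755), stood at 1510 and 1777 in WT on SD and at 1400 and 1284 in Ad-Yap/Taz-KO on SD. On HFD its values were 2102 and 2103 in WT against 1588 and 1860 in Ad-Yap/Taz-KO. Both WT groups lay above the Ad-Yap/Taz-KO group on the same diet without overlap, yet no difference passed the limits. The genotype difference was -0.29 on both diets (adjusted p = 0.38 on SD and 0.17 on HFD), with 95% intervals from -0.63 to 0.05. The diet difference was 0.36 in WT (adjusted p = 0.12) and 0.36 in Ad-Yap/Taz-KO (adjusted p = 0.29).

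Foxo4, the X-linked member of the family (ENSMUSG00000042903, chrX:101254528-101260873), had 675 and 746 in WT on SD and 592 and 602 in Ad-Yap/Taz-KO on SD. On HFD it had 786 and 808 in WT against 539 and 528 in Ad-Yap/Taz-KO. The order of the groups was the same as for Foxo1, and no neighbouring groups overlapped. The difference between genotypes on HFD was -0.58 (SE 0.16, adjusted p = 0.017), which passed the limit on p and lay just under the fold limit. Without replicate 1 of Ad-Yap/Taz-KO on HFD it was -0.593 (adjusted p = 0.031) and was called. It was also called with upper-quartile scaling (-0.613, adjusted p = 0.012) and with the correction for GC content and length (-0.619, adjusted p = 0.011), and was -0.19 (adjusted p = 0.40) with libraries scaled to the same total. On SD the difference was -0.25 (adjusted p = 0.49), and the diet differences were 0.17 in WT (adjusted p = 0.50) and -0.16 in Ad-Yap/Taz-KO (adjusted p = 0.68).

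**Figure D1:**
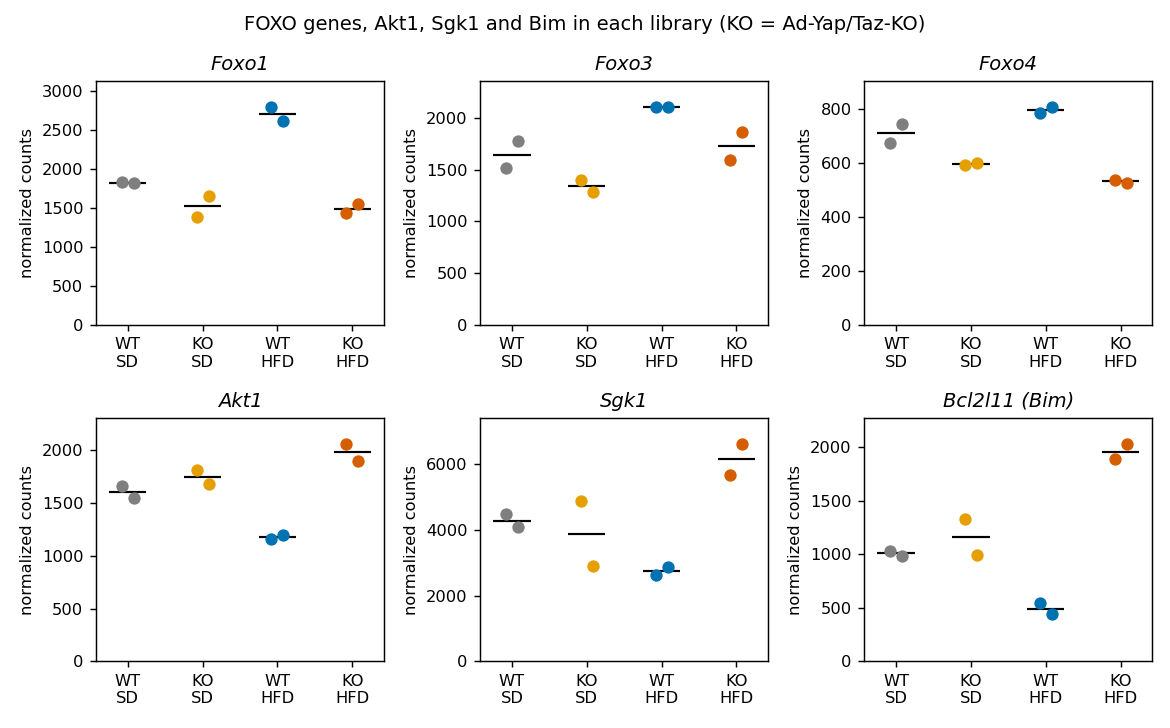
Normalized counts (y axis, from 0) of Foxo1, Foxo3, Foxo4, Akt1, Sgk1 and Bim in each library, by genotype and diet (x axis). Points are the 2 libraries of a group and the bar is their mean. With the scaling of the deposited values, WT on HFD is the highest group for the 3 FOXO genes and the lowest for Akt1, Sgk1 and Bim.

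Akt1 encodes a kinase that inactivates FOXO proteins by phosphorylation (ENSMUSG00000001729, chr12:112653821-112674884). Its level was 1666 and 1545 in WT on SD, 1812 and 1679 in Ad-Yap/Taz-KO on SD, 1164 and 1197 in WT on HFD, and 2063 and 1902 in Ad-Yap/Taz-KO on HFD. The 4 groups did not overlap, and WT on HFD was the lowest. On HFD, Akt1 was 1.68-fold higher in Ad-Yap/Taz-KO adipocytes (log2 fold change 0.75, SE 0.15, adjusted p = 0.0019). On SD the difference was 0.12 (95% interval -0.20 to 0.44, adjusted p = 0.74). In WT mice the diet difference was -0.44 (95% interval -0.76 to -0.13, adjusted p = 0.0502), which did not pass the limits, and in Ad-Yap/Taz-KO mice the diet difference was 0.18 (adjusted p = 0.58). The difference in WT was called with libraries scaled to the same total (-0.86, adjusted p = 0.0025) and with quantile normalization (-0.64, adjusted p = 0.014).

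Sgk1 encodes a kinase that also phosphorylates FOXO proteins and whose own transcription responds quickly to glucocorticoids, serum and stress (ENSMUSG00000019970, chr10:21882184-21999903). WT libraries had 4479 and 4070 on SD and 2627 and 2877 on HFD. Ad-Yap/Taz-KO libraries had 4862 and 2905 on SD and 5661 and 6608 on HFD. WT on HFD was the lowest group and Ad-Yap/Taz-KO on HFD the highest, with no overlap, whereas the 2 Ad-Yap/Taz-KO libraries on SD lay on either side of both WT libraries on SD. On HFD the level was 2.22-fold higher in Ad-Yap/Taz-KO adipocytes (log2 fold change 1.15, SE 0.21, adjusted p = 0.0011). On SD the difference was -0.18 (95% interval -0.64 to 0.27, adjusted p = 0.72), and without replicate 2 of Ad-Yap/Taz-KO it was 0.19.

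In WT mice the fall of Sgk1 with HFD lay at the limit of the call. The level was 1.55-fold lower on HFD (log2 fold change -0.63, SE 0.21, adjusted p = 0.0496). The call was lost on leaving out either WT library of either diet, with -0.57 and -0.70 without replicates 1 and 2 on SD and -0.57 and -0.70 without replicates 1 and 2 on HFD, and adjusted p from 0.13 to 0.24. With the 2 WT libraries on HFD as 1 sample the adjusted p was 0.23. In Ad-Yap/Taz-KO mice the diet difference was 0.70 (SE 0.21, adjusted p = 0.13), and without replicate 1 on SD it was 1.07 (adjusted p = 0.0090) and was called. Immediate-early genes, which respond to cell isolation as well as to signals, summed over 14 genes to 251049 and 223106 in WT on SD and between 109992 and 131703 in the other 6 libraries. Of the 14, 13 were called lower on HFD in WT, beside 9.22% of all genes. The part of the immediate-early genes in the Sgk1 values was not tested.

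Across the 5 genes, 3 were called between genotypes on HFD, with Foxo1 lower and Akt1 and Sgk1 higher, where 32.2% of all genes tested were called (17.1% higher and 15.1% lower). None of the 5 was called between genotypes on SD, where 4.71% of genes were called (3.21% higher and 1.5% lower). At an unadjusted p under 0.05 in limma, the count on SD was also 0. Between diets, 1 of 5 was called in WT (Sgk1), against 18.0% of genes (8.74% higher and 9.22% lower). In Ad-Yap/Taz-KO mice 0 of 5 were called between diets in limma, against 1.07% of genes (0.383% higher and 0.691% lower), and 2 had an unadjusted p under 0.05, both higher on HFD (Foxo3 and Sgk1). Scaling all libraries to the same total raised the median difference of all genes between genotypes on HFD by 0.372 and left 2 higher and 0 lower of the 5 genes called, against 2 higher and 1 lower without it. Under that scaling Foxo1 was at -0.48 (adjusted p = 0.030) and Foxo3 turned to 0.10, while relative to the median of all genes Foxo1 was at -0.95 and Foxo3 at -0.37.

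The genotype effect differed between diets for 1 of the 5 genes, Sgk1. Its effect on HFD exceeded that on SD by 1.34 on the log2 scale (SE 0.29, adjusted p = 0.012), and 1 of 5 genes was called for this interaction against 17.4% of all genes (8.69% with a positive and 8.73% with a negative term). The call was lost without replicate 1 of WT on SD (1.27, adjusted p = 0.073) and without replicate 1 or 2 of WT on HFD (1.27, adjusted p = 0.066, and 1.40, adjusted p = 0.059). Akt1 had an interaction of 0.63 (95% interval 0.18 to 1.07, adjusted p = 0.053) and Foxo1 one of -0.60 (95% interval -1.06 to -0.14, adjusted p = 0.069), and both were called without replicate 1 of Ad-Yap/Taz-KO on SD (0.68, adjusted p = 0.046, and -0.73, adjusted p = 0.033). The Akt1 interaction was also called with libraries scaled to the same total (1.055, adjusted p = 0.0081), quantile normalization (0.87, adjusted p = 0.020), upper-quartile scaling (0.65, adjusted p = 0.045) and a mean of at least 50 (0.63, adjusted p = 0.038), and it was 0.36 (adjusted p = 0.23) with the correction for GC content and length. The Foxo1 interaction was -0.17 (adjusted p = 0.62) with the same total and -0.29 (adjusted p = 0.40) with quantile normalization. The interaction was -0.33 for Foxo4 (adjusted p = 0.34) and 0.00 for Foxo3 (95% interval -0.48 to 0.48).

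**Figure D2:**
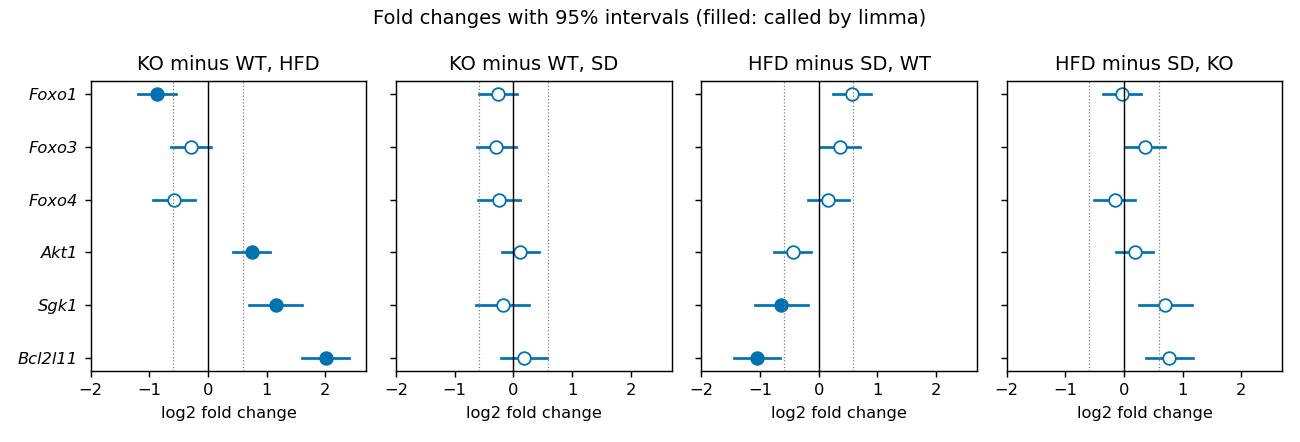
Log2 fold changes (x axis) of the 5 genes and Bim (y axis) in 4 contrasts, with 95% intervals from limma. Filled points were called, dotted lines mark the fold limit of 0.59, and the points for HFD show Foxo1 below 0 and Akt1, Sgk1 and Bim above 0.

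Bim (ENSMUSG00000027381, chr2:128126038-128162547), a BH3-only protein that neutralizes pro-survival BCL2 proteins, moved in the same direction as Akt1 and Sgk1 on HFD. Its level was 1035 and 985 in WT on SD, 1330 and 990 in Ad-Yap/Taz-KO on SD, 541 and 438 in WT on HFD, and 1886 and 2031 in Ad-Yap/Taz-KO on HFD. On HFD it was 4.01-fold higher in Ad-Yap/Taz-KO adipocytes (log2 fold change 2.00, SE 0.18), while Foxo1 was 1.82-fold lower in the same libraries and Foxo3 and Foxo4 were not called. The contrast of genotypes on HFD thus held less Foxo1 RNA beside more Bim RNA.

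Per exon length, the 3 FOXO genes were expressed at similar levels. Normalized counts per kb of exon gave Foxo1 a share of 35.0% and 31.9% of the FOXO sum in WT on SD, 31.1% and 35.9% in Ad-Yap/Taz-KO on SD, 39.1% and 37.3% in WT on HFD and 31.2% and 31.0% in Ad-Yap/Taz-KO on HFD. Foxo3 held between 31.8% and 35.9% on SD, 33.6% and 34.2% in WT on HFD and 39.6% and 42.7% in Ad-Yap/Taz-KO on HFD, where it was the largest of the 3. Foxo4 held between 32.0% and 33.0% on SD and between 26.3% and 29.2% on HFD. The FOXO sum was 604 and 659 per kb in WT on SD, 515 and 534 in Ad-Yap/Taz-KO on SD, 826 and 813 in WT on HFD, and 530 and 576 in Ad-Yap/Taz-KO on HFD. An exact two-sided permutation test of 2 libraries against 2 cannot go below p = 0.333, and no model was fitted to these shares, so they are given without a test. Foxo6, the remaining family member, which is best known from brain, had between 7 and 34 normalized counts and no called difference.

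Between genotypes on HFD, Akt2 differed in the opposite direction to Akt1. Akt2, the isoform best known for insulin action in fat, had 3058 and 3568 in WT on SD, 2590 and 3691 in Ad-Yap/Taz-KO on SD, 6461 and 6530 in WT on HFD, and 3479 and 2117 in Ad-Yap/Taz-KO on HFD. WT on HFD was thus highest for Akt2 and lowest for Akt1. Between genotypes on HFD, Akt2 was lower (log2 fold change -1.26, SE 0.23, adjusted p = 0.0011). Per kb of exon, Akt2 made up 76.1% and 75.8% of the summed level of Akt1 and Akt2 in WT on HFD and 49.2% and 39% in Ad-Yap/Taz-KO on HFD. On SD, Akt2 held between 45.1% and 57% of this sum. The sum per kb was 1190 and 1208 in WT on HFD and 991 and 761 in Ad-Yap/Taz-KO on HFD.

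In WT mice, Akt2 was higher on HFD (0.98, adjusted p = 0.012). The Akt2 diet call was lost in the 4 fits that left out 1 WT library each, with values from 0.86 to 1.09. It was also lost with libraries scaled to the same total (0.56, adjusted p = 0.048, under the fold limit), with quantile normalization (0.68, adjusted p = 0.055), with no filter on low values (0.98, adjusted p = 0.065) and with the 2 WT libraries on HFD as 1 sample (0.98, adjusted p = 0.11). On SD, Akt2 (-0.10) was not called between genotypes. Sgk1 made up at least 94.2% of the summed per-kb level of Sgk1 and Sgk3 in every library. Sgk3, a relative activated on endosomes, had 239 and 199 in WT on HFD and 381 and 411 in Ad-Yap/Taz-KO on HFD (0.86, adjusted p = 0.033), and this call was lost without each of the 4 HFD libraries, with values from 0.73 to 0.99. Sgk2 had at most 9 normalized counts and was not tested.

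**Figure D3:**
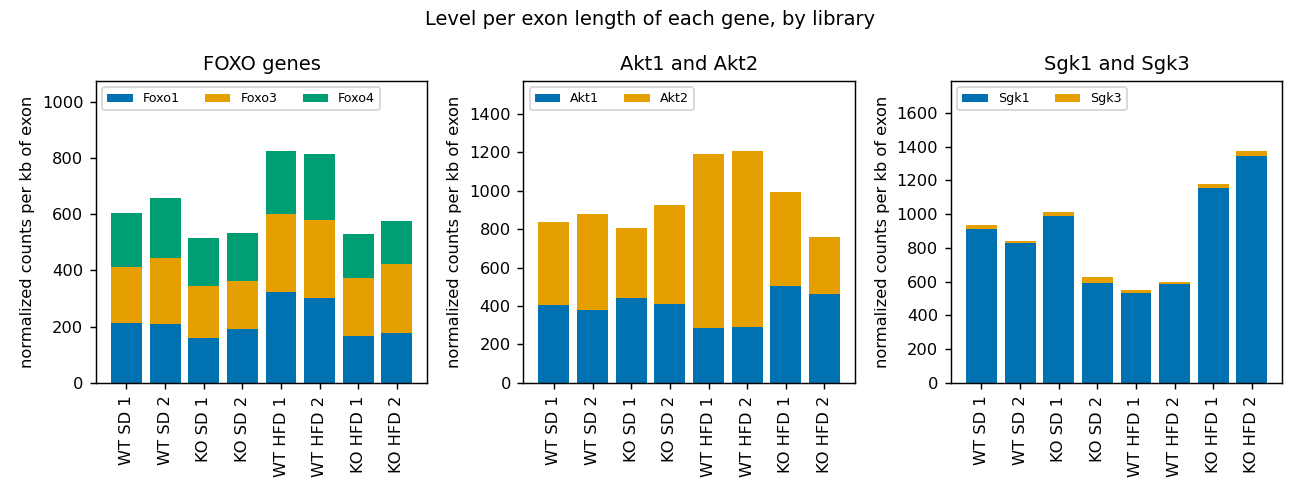
Normalized counts per kb of merged exon (y axis, stacked from 0) of the 3 FOXO genes, of Akt1 and Akt2, and of Sgk1 and Sgk3 in each of the 8 libraries (x axis; KO, Ad-Yap/Taz-KO). In both WT libraries on HFD the Akt2 segment makes up 76.1% and 75.8% of the bar of Akt1 and Akt2, and Sgk1 makes up nearly the whole bar of Sgk1 and Sgk3 everywhere.

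The wider pathway was described with 113 genes, of which 111 were tested. On HFD, 21 were called higher and 34 lower in Ad-Yap/Taz-KO adipocytes, which is 49.5% of them beside 32.2% of all genes, and their median log2 fold change was -0.22 beside 0.09 for all genes. This split changed with the scaling. With libraries scaled to the same total it was 29 higher and 15 lower, and with quantile normalization 21 higher and 19 lower. On SD 7 were higher and 8 lower, which is 13.5% of them beside 4.71% of all genes. Leaving out replicate 1 or 2 of WT on HFD brought the count of 55 called on HFD to 36 and 34, or 32.4% and 30.6% of the list, beside 21.6% and 19.3% of all genes in the same fits. Among the genes of these lists given below with a log2 fold change, the calls of Insr, Irs1, Bcl6, Nr3c1 and Errfi1 on HFD were lost both with the same total and with quantile normalization. Those of Mtor and Hsd11b1 were lost with the same total and those of Bbc3, Sfn and Tnfsf10 with quantile normalization. With the correction for GC content and length, the calls of Insr, Irs1, Nr3c1, Errfi1, Bbc3 and Sfn were lost, and with the replicate block that of Bbc3.

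In the arm that activates AKT, 4 of 16 genes were called higher on HFD in Ad-Yap/Taz-KO adipocytes and 6 lower. This is 62.5% of the list, beside 32.2% of all genes, with a median of -0.42. Pik3cg and Pik3cd, catalytic PI3K subunits best known from leukocytes, were at 33 and 51 and at 108 and 54 in WT and at 362 and 284 and at 518 and 527 in Ad-Yap/Taz-KO (log2 fold changes 2.94 and 2.76). The regulatory subunit gene Pik3r3 rose by 0.88 on the same scale (adjusted p = 0.0036; 0.73 to 1.03 with 1 library left out, not called without replicate 2 of WT on HFD). Mtor, the kinase of both mTOR complexes, was lower, from 3243 and 3384 to 2086 and 1549 (-0.88, adjusted p = 0.0020). The other genes called lower were Insr, the insulin receptor (-0.84), Irs1, its docking protein (-0.60), Pik3r1, Pdpk1, which encodes PDK1, and Mapkap1, and the remaining one called higher was Igf1r. With libraries scaled to the same total, Mtor (-0.50) and Insr (-0.46) lay under the fold limit, as did Insr with quantile normalization (-0.50) and with the correction for GC content and length (-0.54). The Irs1 call was lost under these 3 settings and without either WT library or replicate 2 of Ad-Yap/Taz-KO on HFD (-0.77 to -0.44). On SD, Pik3cg (2.03) and Pik3cd (1.64) were the 2 genes of this list that were called, and neither was called without replicate 1 of Ad-Yap/Taz-KO or without 1 WT library (replicate 2 for Pik3cg, 1.67 to 2.40, and replicate 1 for Pik3cd, 1.42 to 1.85). The macrophage marker Adgre1 moved in the same direction, from 73 and 90 to 3314 and 3178 on HFD and from 150 and 152 to 1699 and 922 on SD, and its part in the values of Pik3cg and Pik3cd was not tested.

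Among 19 inhibitors of this arm, 2 were called higher and 7 lower on HFD (47.4%, beside 32.2% of all genes, median -0.33). Inpp5d, a phosphatase of the PI3K product that is known from blood cells, had 160 and 143 in WT against 1091 and 1055 in Ad-Yap/Taz-KO (2.82, adjusted p = 5.8e-07). It was also called on SD (0.84, adjusted p = 0.025), a call lost without any 1 of the 4 WT libraries or replicate 1 of Ad-Yap/Taz-KO on SD (0.70 to 0.99). The other 3 of the list called on SD were lower, namely Phlpp2, a phosphatase of AKT (-1.40, adjusted p = 0.00063), Inpp4b (-1.38, adjusted p = 0.015) and Trib1 (-0.83, adjusted p = 0.0089). The Inpp4b call was lost without either WT library or replicate 2 of Ad-Yap/Taz-KO on SD (-1.70 to -1.07) and the Trib1 call without replicate 2 of WT or replicate 1 of Ad-Yap/Taz-KO on SD (-0.99 to -0.66). Pik3ip1, which restrains PI3K and is itself a FOXO target, had 49 and 33 in WT against 141 and 166 in Ad-Yap/Taz-KO (1.90, adjusted p = 0.0018). Ppp2r5b and Ppp2r5a, regulatory subunits of the phosphatase PP2A, were lower, from 1545 and 1801 to 596 and 282 and from 16654 and 17647 to 8567 and 5184 (-2.02 and -1.36). In WT mice, Ppp2r5b was higher on HFD than on SD (2.55, adjusted p = 0.00019), from 275 and 293 to 1545 and 1801.

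Of 24 genes for proteins that bind or modify FOXO factors, 5 were called higher and 5 lower on HFD (41.7%, beside 32.2% of all genes, median 0.07). Mdm2, a ubiquitin ligase and p53 target, had 1437 and 1633 in WT against 4628 and 4842 in Ad-Yap/Taz-KO (1.63, adjusted p = 6.5e-06), and it was also called on SD (0.97, adjusted p = 0.0018). The 14-3-3 genes that moved did not move together. Ywhaq (-1.35), Ywhag (-1.19) and Ywhab were called lower and Sfn higher (1.44, adjusted p = 0.035), the last from 37 and 19 to 63 and 87. In WT mice the same 3 and Ywhae were higher on HFD than on SD, and Sfn was lower (-1.61, adjusted p = 0.035). With libraries scaled to the same total the calls of Ywhab (0.45), Ywhae (0.20), Ywhag (0.48) and Ywhaq (0.48) were lost, and with quantile normalization those of Ywhab (0.49), Ywhae (0.31), Ywhag (0.55) and Sfn (-1.18). With the correction for GC content and length, those of Ywhae (0.56) and Sfn (-1.36) were lost. Of these diet calls, those of Sfn (-2.07 to -1.14), Ywhab (0.83 to 0.90), Ywhae (0.57 to 0.66) and Ywhag (0.77 to 1.02) were lost without any 1 of the 4 WT libraries, and that of Ywhaq (0.72 to 1.07) without replicate 1 on SD or either library on HFD. The Sfn call between genotypes was lost without replicate 1 or 2 of WT on SD, replicate 2 of WT on HFD or either Ad-Yap/Taz-KO library on HFD, with values from 0.98 to 1.91.

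Known FOXO targets did not follow a single direction. Of 7 cell-death genes, 4 were called higher on HFD and 2 lower (85.7%, beside 32.2% of all genes), with a median of 0.77, which is the value of Bbc3. Besides Bim, the death ligand gene Tnfsf10 had 103 and 51 in WT against 127 and 278 in Ad-Yap/Taz-KO (1.36, adjusted p = 0.033), a call lost without replicate 1 or 2 of WT on SD, replicate 2 of WT on HFD or replicate 2 of Ad-Yap/Taz-KO on HFD, with values from 0.80 to 1.92. Bbc3, which encodes the BH3-only protein PUMA, had 159 and 188 in WT against 322 and 270 in Ad-Yap/Taz-KO (0.77, adjusted p = 0.036), a call lost without each of the 4 HFD libraries, with values from 0.64 to 0.89. In WT on HFD, Fasl was listed at 0 in both libraries, and in Ad-Yap/Taz-KO it had 11 and 16. Bnip3, a mitophagy gene, was lower, from 4421 and 3905 to 1517 and 1242 (-1.60, adjusted p = 3.4e-05), and so was the repressor gene Bcl6 (-0.82, adjusted p = 0.022), whose call was lost without either WT library or replicate 2 of Ad-Yap/Taz-KO on HFD (-0.88 to -0.76). On SD, 0 of the 7 were called between genotypes in limma, beside 4.71% of all genes, and 1 had an unadjusted p under 0.05. The Bim difference on SD was 0.18 (95% interval -0.21 to 0.58).

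Of 15 targets in growth arrest and stress defence, 1 was called higher and 4 lower on HFD (median -0.33), a share of 33.3% that is close to the 32.2% of all genes. All 3 sestrin genes, which restrain mTORC1, were lower. Sesn3 had 1538 and 1734 in WT against 591 and 509 in Ad-Yap/Taz-KO (-1.57, adjusted p = 3.4e-05), Sesn2 differed by -1.30 and Sesn1 by -1.06, the last call being lost without replicate 1 of WT (-1.25 to -0.87 over the fits with 1 library left out) or replicate 2 of Ad-Yap/Taz-KO on HFD. Cdkn1a, a cell cycle inhibitor gene and p53 target, was higher, from 1614 and 1647 to 2423 and 3139 (0.76, adjusted p = 0.0070), and its call was lost without either WT library or replicate 2 of Ad-Yap/Taz-KO on HFD (0.57 to 0.95). Sesn3 and Sesn1 were also higher on HFD than on SD in WT mice (0.90 and 0.88). The Sesn1 call was lost without any 1 of the 4 WT libraries (0.85 to 0.91) and the Sesn3 call without replicate 1 on SD or replicate 2 on HFD (0.72 to 1.08). With libraries scaled to the same total both calls were lost (0.48 and 0.47 for Sesn3 and Sesn1), and with quantile normalization that of Sesn1 (0.76, adjusted p = 0.074). On SD, Cat was called higher (1.144, adjusted p = 0.044) and Txnip (-1.06, adjusted p = 0.0020), Cited2 (-0.95, adjusted p = 0.0067) and Gadd45b (-0.87, adjusted p = 0.0034) lower. Of the 14 immediate-early genes, 11 were also called lower on SD, beside 1.5% of all genes. The part of the immediate-early genes in these values was not tested. The Cat call was lost without either WT library on SD, replicate 2 of Ad-Yap/Taz-KO on SD or either WT library on HFD (0.84 to 1.45), and those of Cited2 (-1.09 to -0.81) and Gadd45b (-0.98 to -0.75) without replicate 1 of WT on SD.

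Among 15 tested targets in metabolism and feedback, 3 were called higher and 5 lower on HFD (53.3%, beside 32.2% of all genes, median -0.24). Pdk4, which limits glucose oxidation, had 1950 and 1982 in WT against 5406 and 4630 in Ad-Yap/Taz-KO (1.35, adjusted p = 2.4e-05). Fbxo32, a ubiquitin ligase gene of muscle atrophy, rose from 522 and 340 to 1433 and 1194 (1.63, adjusted p = 0.00016). It was also called on SD (0.97, adjusted p = 0.026), a call lost without either WT library or replicate 1 of Ad-Yap/Taz-KO on SD (0.75 to 1.19). Pck1, which supplies glycerol for triglyceride synthesis in fat, was lower, from 33457 and 33715 to 15662 and 10313 (-1.40, adjusted p = 0.00039). Tsc22d3, also a glucocorticoid target, fell from 2521 and 2549 to 770 and 643 (-1.85, adjusted p = 3.9e-05).

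Genes that SGK1 acts on and genes that respond to glucocorticoids, which induce Sgk1, were counted next. Of 7 substrates and inducers, 0 were called higher on HFD in Ad-Yap/Taz-KO adipocytes in limma and 3 were lower (42.9%, beside 32.2% of all genes, median -0.48). At an unadjusted p under 0.05, 1 was higher, namely Nedd4l, a ubiquitin ligase that SGK1 phosphorylates (0.50, adjusted p = 0.036, under the fold limit, and called at 0.68 without replicate 2 of Ad-Yap/Taz-KO on HFD). Nedd4l was also called higher with libraries scaled to the same total (0.89, adjusted p = 0.00085) and with quantile normalization (0.70, adjusted p = 0.0069). With the correction for GC content and length it was called at 0.86 (adjusted p = 0.002). Ndrg2, of a family that SGK1 phosphorylates, had 3478 and 3484 in WT against 386 and 596 in Ad-Yap/Taz-KO (-2.86, adjusted p = 7.6e-07). Ndrg2 was also called lower on SD (-1.02, adjusted p = 0.011), where Sgk1 was not called, and this call was lost without replicate 2 of WT or replicate 1 of Ad-Yap/Taz-KO on SD (-1.19 to -0.85). Nedd4l was called higher on SD (0.72, adjusted p = 0.029), a call lost without any 1 of the 4 libraries on SD or either WT library on HFD (0.62 to 0.81). The glucocorticoid receptor gene Nr3c1 (-0.68, adjusted p = 0.0031) and Hsd11b1 (-1.05, adjusted p = 0.0095), whose enzyme regenerates active glucocorticoid, were lower. The Nr3c1 call was lost without replicate 2 of either genotype on HFD (-0.78 to -0.58) and the Hsd11b1 call without either WT library on HFD (-1.14 to -0.96). Of 9 glucocorticoid-induced genes, 44.4% were called, beside 32.2% of all genes, with 1 higher (Dusp1, 0.68) and 3 lower, namely Tsc22d3, Zbtb16 (-1.78) and Errfi1 (-0.63). The other 5 were not called, and the median was -0.60 over the list. The Errfi1 call was lost without either WT library or replicate 1 of Ad-Yap/Taz-KO on HFD (-0.79 to -0.47). Errfi1 was also called lower on SD (-0.72, adjusted p = 0.046), a call lost in 5 of the 8 fits with 1 library left out, namely without replicate 2 of WT or either Ad-Yap/Taz-KO library on SD or either WT library on HFD (-0.99 to -0.44). This SD call was also lost with a pseudocount of 0.1, no filter, the same total, quantile normalization or the replicate block. The same held with the 2 WT libraries on HFD as 1 sample and with only the 2 groups compared.

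**Figure D4:**
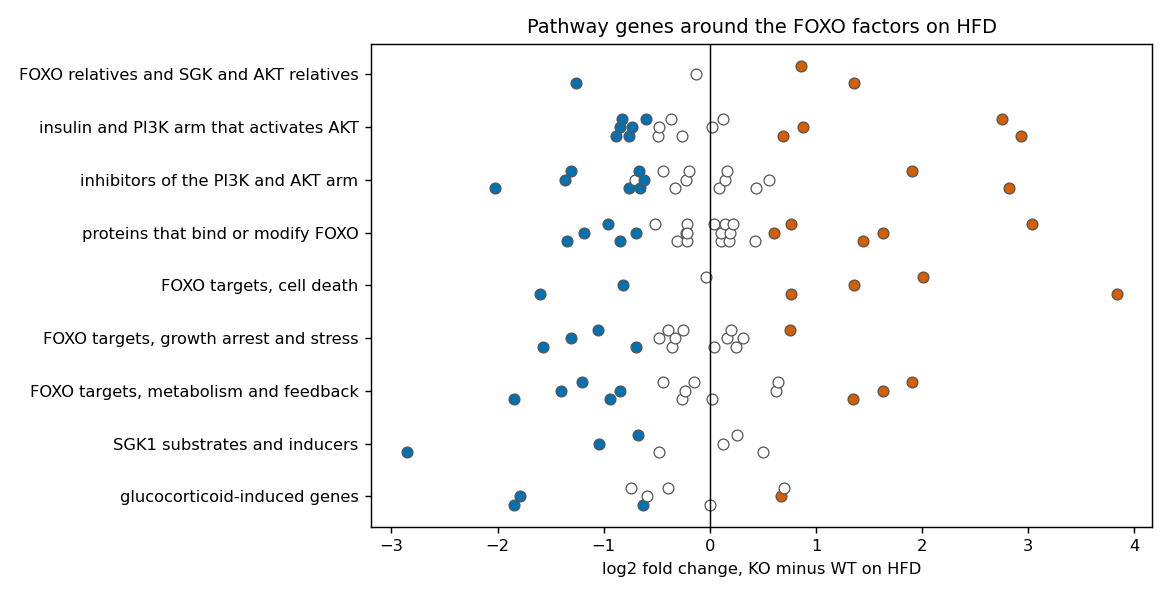
Log2 fold change between Ad-Yap/Taz-KO and WT on HFD (x axis) of each tested gene of the 9 pathway lists (y axis), 1 point per gene, spread vertically for legibility. Orange points were called higher, blue points lower and open points were not called, and most lists hold both colours.

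The genes whose levels over the 8 libraries lay closest to each of the 5 were found by the root mean square difference of centred log2 values. For Foxo1 these were Smarca2 (0.057), Vps26b (0.074) and 2700060E02Rik (0.086), beside a root mean square of 0.355 for the profile of Foxo1 itself. Smarca2, a chromatin remodelling ATPase, had 6851 and 6203 in WT on HFD and 3506 and 4097 in Ad-Yap/Taz-KO on HFD. Foxo3 lay closest to Zbtb33 (0.070), Rbms1 and Tm7sf3, and Foxo4 to Dusp22 (0.036), Cpne3 and Syf2. For Akt1 the closest were Zbtb21 (0.085), Tbkbp1 and Dnajb9, and for Sgk1 Peli1 (0.094), Ccdc97 and Pde4b. Peli1 had 1047 and 1034 in WT on HFD and 2166 and 2352 in Ad-Yap/Taz-KO on HFD, and it had 1727 and 1223 in Ad-Yap/Taz-KO on SD, where Sgk1 also had its widest spread.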

How the data were processed

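RNA-seq libraries of epididymal white adipocytes were grouped by genotype and diet from the sample labels. The authors depleted ribosomal RNA, used Reaper for trimming, STAR 2.5.2b for alignment to GRCm38 and featureCounts 1.5.1 for counts on exons, and tested with DESeq2 1.14.1, versions being those of the submitters' processing notes. The deposited values are a score, namely gene counts that the authors divided by 1 factor per library and then rounded, so that no count test was run.

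Genes with a mean of at least 5 (18800 of 30387) were tested with limma 3.58.1 in R 4.3.3 (eBayes with trend) on log2(value + 1), with 1 as the pseudocount, in 1 fit of 4 group means (4 residual degrees of freedom, 8.59 prior). Adjusted p-values are Benjamini-Hochberg values over all genes tested, and fold changes are on the log2(value + 1) scale. The fit was tested on simulated data. Tables were made with Python 3.11.15, pandas 2.3.3 and numpy 2.4.6 and figures with matplotlib 3.10.9. Per-kb levels used merged exons of GENCODE vM21 (GRCm38), which also gave the positions.

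The members and the 16 gene lists were chosen with earlier results of these data known, so they describe and support nothing. Genes named from a list were the 4 with the largest change among those called between genotypes on HFD with a mean of at least 50. Pdk4, Insr, Nedd4l, Phlpp2, Inpp4b, Trib1, Cat, Txnip, Cited2, Gadd45b, Irs1, Bbc3, Fasl, Adgre1 and the genes named without a value were named after their values were seen. Some genes counted in the lists are not reported here by name. Alternatives were other pseudocounts, filters, scalings and call limits, robust eBayes, a block for the replicate number, only the 2 groups compared, the 2 WT libraries on HFD as 1 sample, a correction for GC content and length, the longest transcript for per-kb levels, and leaving out each library. With 2 libraries a group, p-values measure the spread between these libraries, and reads without molecular identifiers are not independent molecules.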

Additional observations from a re-analysis of the deposited data

Results flagged for a closer look

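The effect of the knockout differed between diets, by the interaction term of limma, for 3 genes among the 5, Bim and Akt2. Of all genes tested, 17.4% were called for this term. The effect on HFD minus that on SD was 1.34 on the log2 scale for Sgk1 (adjusted p = 0.012), 1.82 for Bim (Bcl2l11, adjusted p = 0.0028) and -1.16 for Akt2 (adjusted p = 0.027). In each case the effect on SD was not called, and both libraries of Ad-Yap/Taz-KO on HFD lay on 1 side of both WT libraries on HFD. The Sgk1 term ran from 0.97 to 1.71 with 1 library left out, and its call was lost without the libraries named above. The Sgk1 call was also lost with no filter on low values and with the 2 WT libraries on HFD as 1 sample. The Bim call held in all 8 fits with 1 library left out (1.61 to 2.03). The Akt2 call held in 2 of the 8, being kept without replicate 1 of either Ad-Yap/Taz-KO group (-1.52 to -0.81), and was also lost with libraries scaled to the same total (-0.73, adjusted p = 0.074), with quantile normalization (-0.85, adjusted p = 0.085), with no filter on low values and with the 2 WT libraries on HFD as 1 sample (-1.16 and adjusted p = 0.11 in both).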

How the results depend on the processing

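Of 594 values of the 5 genes and Bim under alternatives, 549 kept their direction and call, 15 lost and 15 gained a call and 15 turned their sign; unless a setting is a smaller sample or test, the cause was not tested. Between genotypes on HFD, Akt1, Sgk1 and Bim were called in 12 of 12 alternatives and Foxo1 in 11. With 1 library left out, the log2 fold change was 0.688 to 0.805 for Akt1 and 1.042 to 1.265 for Sgk1. It was 1.853 to 2.157 for Bim and -0.921 to -0.809 for Foxo1. For a contrast of 2 groups, leaving out a library of another group cannot change the fold change, only its spread and adjusted p. The 549 values include such fits.

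The number of the 5 genes called between diets in WT (1) was 0 with a pseudocount of 0.1, no filter, the replicate block or the WT HFD libraries averaged, 2 with the same total, quantile normalization or no fold limit, and 0 to 1 with 1 library left out; in Ad-Yap/Taz-KO (0) it was 0 to 1. For the interaction (1) it was 0 with no filter or the averaged libraries, 2 with a mean of at least 50, the same total, upper-quartile scaling or quantile normalization, 3 with an adjusted p of at most 0.1, and 0 to 3 with 1 left out. Replicate numbers share only a number (correlations of deviations from -0.107 to 0.04), and the replicate block changed no other call of the 5 genes. For the pathway counts that follow, calls over all genes moved as well. Between diets in WT, 881 genes were called higher and 820 lower with no filter (30387 tested), against 1643 and 1734 in the main fit (18800 tested). For the interaction these counts were 400 and 321 with no filter, against 1633 and 1641.

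Pathway genes called on HFD (55) were 34 with the averaged libraries and 34 to 57 with 1 left out. On SD (15) they were 6 with no filter, 9 with only the 2 groups compared and 6 to 16 with 1 left out. Between diets in WT (33) they were 16 with no filter, 6 averaged and 5 to 35 with 1 left out. In Ad-Yap/Taz-KO (6) they were 3 with a pseudocount of 0.1, 1 with no filter or averaged, 12 with an adjusted p of at most 0.1, 0 with only the 2 groups and 1 to 16 with 1 left out. For the interaction (38) they were 11 with no filter, 25 with quantile normalization, 5 averaged and 6 to 45 with 1 left out.

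With the same total, Foxo3 turned to 0.10 between genotypes on HFD, -0.054 between diets in WT and 0.43 for the interaction, and Foxo4 to -0.25 between diets in WT and 0.10 for the interaction. The Foxo3 interaction was also 0.018 with upper-quartile scaling, 0.32 with quantile normalization, 0.035 with the GC and length correction and -0.12 to 0.12 with 1 library left out. Leaving 1 out gave -0.56 to 0.19 for Sgk1 and -0.028 to 0.40 for Bim on SD, and -0.16 to 0.10 for Foxo1 between diets in Ad-Yap/Taz-KO. Per kb of the longest transcript, the shares on HFD were 35.9%, 35.2% and 28.9% for Foxo1, Foxo3 and Foxo4 in WT and 29.0% for Foxo1 in Ad-Yap/Taz-KO, and on SD 33.3% and 33.7% for Foxo4 in WT and Ad-Yap/Taz-KO.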
